A study of Rattus norvegicus with 4 samples.

Results

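The regions described here are H1T2 ChIP-sequencing peaks of rat spermatid chromatin that are centred on the repeat RatSatRep2 and are not annotated as intronic. They are called RatSatRep2 peaks outside introns. A peak was taken where the HOMER annotation supplied with the study names RatSatRep2 and names no intron. This rule also kept 21 peaks without any category, and whether these lie in introns was not determined. In all, the rule gave 453 peaks among the 1930 peaks whose annotation was used here (23.5%, 95% Wilson interval 21.6 to 25.4%) and 11570 peaks in the whole list. These 1930 are the peaks with the largest -log10 p-values, all at 17.78 or above, so that RatSatRep2 peaks below this value are not counted. A limit of 25 in place of 17.78 leaves 207 of the peaks. Chromatin came from testes of rats aged 35 to 50 days, with round and elongating spermatids named as the cell type, and was represented by 2 samples precipitated with antibodies against H1T2 (IP) and 2 input samples of sonicated chromatin. Genotype, strain and pooling of animals are not given in the labels used here. Per the header of the list, peaks had been called on the merged IP against the merged input, which held 16203958 and 78371120 tags after filtering. Each peak therefore has 1 value, no spread between replicates could be computed, and no difference between groups of peaks was tested.

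H1T2 is a linker histone variant made in spermatids, where the chromatin is remodelled and most histones give way to transition proteins and then protamines. Linker histones bind DNA at the entry and exit of the nucleosome. Repeats such as RatSatRep2 are present in many near-identical copies, so that a short read can often be placed at more than 1 of them, and the number of tags at a copy depends on how such reads were handled. Per the methods, reads were aligned uniquely, and how many reads this left out at each copy was not determined. The annotation lists RatSatRep2 under an unknown class and family, although its name contains the abbreviation of satellite.

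For each peak the pileup is the number of IP tags at the summit, the local background is the number of tags expected there from the scaled input, and fold enrichment is the ratio of both. RatSatRep2 peaks outside introns had a median pileup of 46 tags (quartiles 38 and 60, range 24 to 124). The median local background was 6.21 tags (quartiles 3.93 and 9.30, range 1.65 to 21.08). Their fold enrichment lay between 3.70 and 26.55, with a median of 7.64 and quartiles of 6.22 and 9.67. The peaks were 200 to 1943 bp long with a median of 400 bp, and 25 of them (5.52%) reached 1000 bp. The largest fold enrichment of the whole list was 233.45, while RatSatRep2 peaks in introns reached 18.72 and those on L1_Rn, a LINE-1 subfamily, outside introns 25.23.

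**Figure D1:**
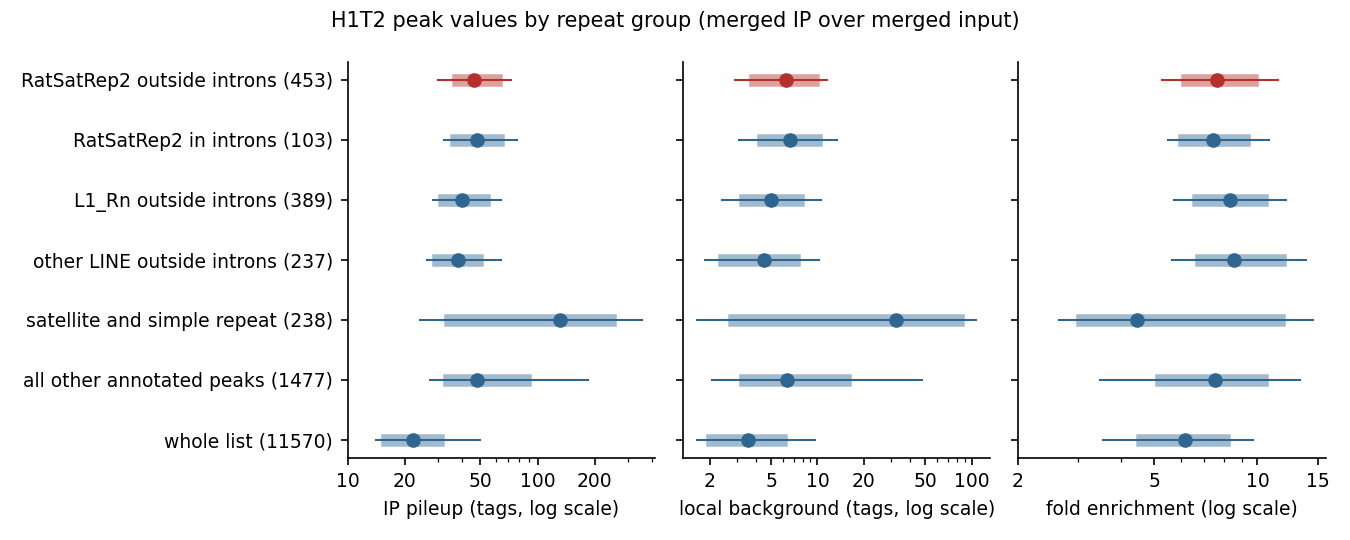
IP pileup, local background (both in tags) and fold enrichment on log scales for RatSatRep2 peaks outside introns (red) and comparison groups (blue), with the number of peaks in brackets; points are medians, thick bars quartiles and thin lines run from the 10th to the 90th percentile. The RatSatRep2 peaks outside introns (median fold 7.64) lie close to those in introns (7.44) and have a narrower background range than satellite and simple repeat peaks.

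The 103 RatSatRep2 peaks in introns had nearly the same medians, namely 48 tags in the IP, 6.62 tags in the background, a fold of 7.44 and a length of 421 bp. Of all 556 annotated RatSatRep2 peaks 18.5% were intronic (95% Wilson interval 15.5 to 22.0%), against 16.5% (14.7 to 18.6%) of the 1374 other annotated peaks, and these intervals overlap. The 389 peaks on L1_Rn outside introns were shorter and lower, with medians of 337 bp, 40 tags and a background of 4.96 tags, and had a median fold of 8.32. On satellites and simple repeats the median pileup was 131 tags, the median background 32.27 tags and the median fold 4.46. By their medians, RatSatRep2 peaks outside introns were therefore placed between L1_Rn and satellite peaks in pileup and background, with quartile ranges that overlap those of both. The satellite and simple repeat peaks were widely spread. Their lower quartiles, 34.5 tags in the IP and 2.89 tags in the background, were below the 38 and 3.93 tags of the RatSatRep2 peaks outside introns.

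Nearly all RatSatRep2 peaks outside introns were called against an input level above the genome average. The lowest background that the peak caller can use is the genome background of 1.65 tags, and 1 of the 453 peaks (0.221%, 95% Wilson interval 0.039 to 1.24%) was called against it. Among L1_Rn peaks outside introns this share was 2.31% (1.22 to 4.34%), among all other annotated peaks 7.11% (5.91 to 8.53%) and in the whole list 16.0% (15.4 to 16.7%). It was 7.17% (4.53 to 11.2%) among other LINE peaks outside introns and 14.3% (10.4 to 19.3%) among satellites and simple repeats. The median background of the RatSatRep2 peaks was 3.75 times the genome background, compared with 3.83 times for the other annotated peaks and 2.13 times for the whole list. The other annotated peaks are a mixture, with 3.0 times for L1_Rn and 2.7 times for other LINE peaks outside introns, 4.0 times for RatSatRep2 in introns and 19.5 times for satellites and simple repeats. Of the RatSatRep2 peaks in introns 0 of 103 (0.0 to 3.6%) had the lowest value, and the intervals of these and of the L1_Rn peaks overlap that of the RatSatRep2 peaks outside introns.

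A fold enrichment of at least 10 was reached by 104 of the 453 peaks (23.0%, 95% Wilson interval 19.3 to 27.0%), against 26.1% of all annotated peaks and 7.87% of the whole list. The share is thus near that of the annotated peaks, all of which have small p-values. It was 17.5% (11.3 to 25.9%) for RatSatRep2 in introns and 26.7% (22.6 to 31.3%) for L1_Rn outside introns. Satellites and simple repeats had 29.4% (24.0 to 35.5%) and other LINE peaks outside introns 40.1% (34.1 to 46.4%). Of these intervals, only that of the other LINE peaks lies apart from that of the RatSatRep2 peaks outside introns. Within the group, the 114 peaks with the lowest backgrounds, from 1.65 to 3.93 tags, had a median pileup of 32 tags and a median fold of 10.68. In the 109 with the highest backgrounds, from 9.31 to 21.08 tags, the pileup was 68 tags and the fold 5.71. Across the 453 peaks Spearman's rho was 0.86 between background and pileup and -0.84 between background and fold. Both are descriptions, because fold is computed from the background and the smallest -log10 p-value of 17.78 sets the lowest pileup that a peak of a given background can have. Longer peaks had more tags, with medians of 38 tags under 300 bp and 72 tags at 1000 bp or more, while the median fold was 8.98 and 6.71.

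**Figure D2:**
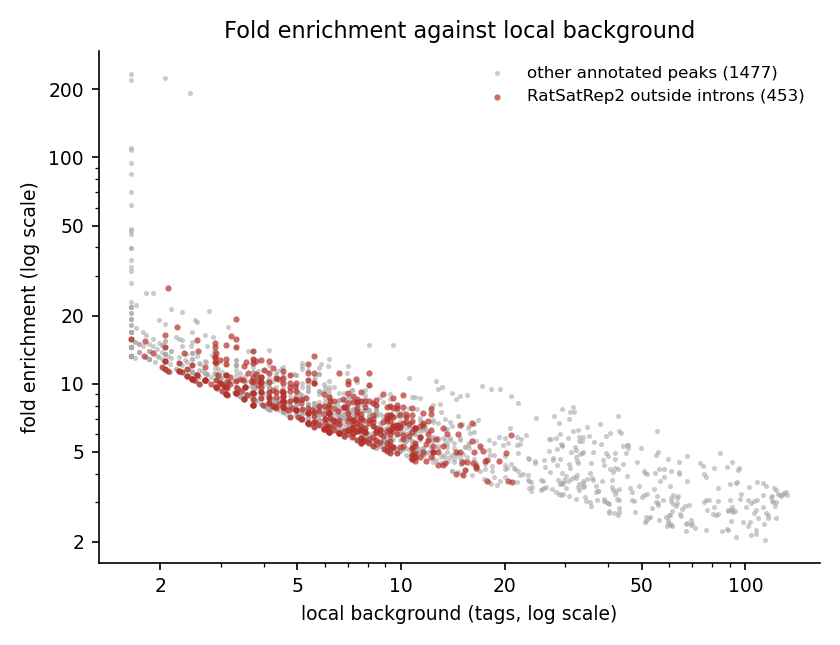
Fold enrichment against local background (tags), both on log scales, with each point 1 peak, for 453 RatSatRep2 peaks outside introns (red) and 1477 other annotated peaks (grey). The RatSatRep2 peaks end at a background of 21.08 tags and a fold of 26.55, and the sharp lower edge follows from the smallest -log10 p-value of 17.78 among annotated peaks.

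In the ranking of the annotated peaks by -log10 p-value, RatSatRep2 was rare at the very top. The first 100 peaks held 0 RatSatRep2 peaks outside introns, the first 200 held 11 and the first 500 held 92. In the first 386 peaks, from a -log10 p-value of 36.40 upwards, they made up 16.1% (62 of 386 peaks, 95% Wilson interval 12.7 to 20.1%). In the next 386 peaks the share was 28.5% (110 peaks, 24.2 to 33.2%), and in the following groups of 386 it lay between 23.1 and 25.6%. L1_Rn peaks outside introns made up 9.84% (7.26 to 13.2%) of the first 386 peaks, with an overlapping interval, and their largest -log10 p-value of 59.22, like the 58.41 of RatSatRep2 in introns, was below the 61.10 of the RatSatRep2 peaks outside introns, so that the first 100 held none of these groups either. Satellite and simple repeat peaks took the opposite course, with 27.7% (23.5 to 32.4%) of the first 386 peaks and 7.51% (5.28 to 10.6%) of the last.

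**Figure D3:**
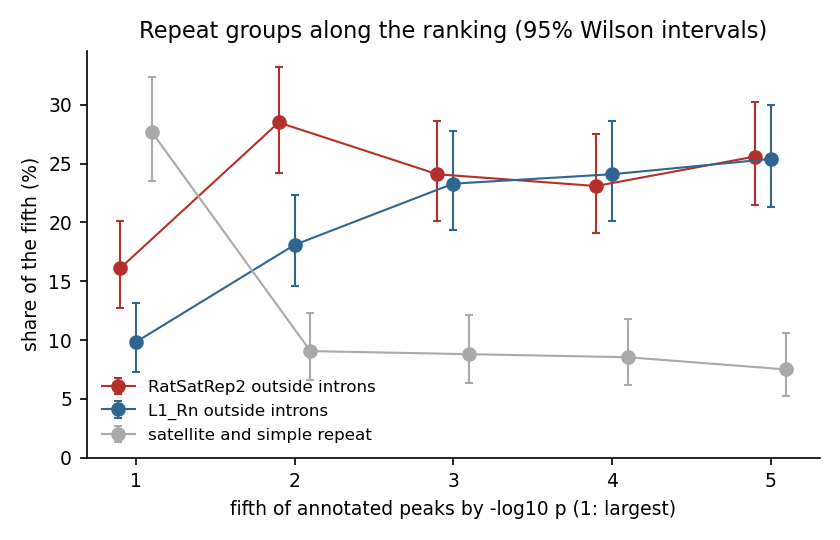
Share of 5 equal groups of the 1930 annotated peaks (386 peaks each, ordered from the largest -log10 p-value) taken by RatSatRep2 peaks outside introns (red), L1_Rn peaks outside introns (blue) and satellite and simple repeat peaks (grey), in percent with 95% Wilson intervals. RatSatRep2 has its lowest share, 16.1%, in the first group and its highest, 28.5%, in the next.

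The RatSatRep2 peak with the largest -log10 p-value lay on chromosome 5 from 133010086 to 133010603 of rn6, 715.3 kb from the TSS of Foxe3, a forkhead transcription factor of the lens. At its summit were 90 tags, which gave a fold enrichment of 11.16 (95% exact Poisson interval 8.97 to 13.72, counting error only) and a -log10 p-value of 61.10, which ranked 132 in the whole list. The largest fold enrichment was found on chromosome Y from 2133152 to 2133519, where 56 tags against an expected 2.11 gave a fold of 26.55 (20.06 to 34.48). Its nearest gene was Usp9y, a Y-linked deubiquitinase, at 729.9 kb. These intervals hold the background fixed and leave out the counting error of the input, and the peaks were picked as the extremes of the group, so that their values are not compared. If the tags of a pair are counted as 1, the intervals widen to 17.64 to 38.37 for this peak and 8.14 to 14.93 for the Foxe3 peak. All pileups are even, so the intervals given below for the folds of single peaks are too narrow in the same way, unless pairs are named.

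Next came a peak on chromosome 7 from 46629039 to 46629384, with 64 tags and a fold of 19.25 (14.82 to 24.58, or 13.17 to 27.18 with pairs counted once). Its nearest gene was Tmtc2, at 956.9 kb. Near Pcdhb2, one of the clustered protocadherins of neuronal cell adhesion, the peak on chromosome 18 from 30349039 to 30349413 had 74 tags and a fold of 13.26 (10.41 to 16.65), at 26.57 kb from the TSS. The largest pileup, 124 tags, was on chromosome 11 from 39133623 to 39133921, 348.6 kb from Hmgn1, which encodes a nucleosome-binding protein. As its background was 20.88 tags, the fold was only 5.94 (4.94 to 7.08). The 5 peaks of the largest pileup (94 to 124 tags) had folds of 4.94 to 7.71, while the Foxe3, Tmtc2 and Pcdhb2 peaks were above the upper quartiles of the group in both pileup and fold.

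Further peaks among the 10 with the largest -log10 p-values were nearest to Usp9y, Tmem47, Vrk1 (a nuclear kinase) and Adcy8 (an adenylate cyclase), with folds of 6.70 to 11.18. The 5 of the largest fold included 3 further peaks. One, on chromosome 2 from 245405631 to 245406454, had 40 tags and a fold of 17.88 (12.77 to 24.35, or 10.92 to 27.61 with pairs counted once). Its nearest gene, at 884.3 kb, was Stpg2, named for sperm-tail repeats in its protein. The peaks nearest to the olfactory receptor genes Olr1765 (at 591.9 kb) and Olr1071 (at 42.34 kb) had folds of 16.44 (11.39 to 22.97) and 16.23 (12.12 to 21.28). The intervals of these peaks overlap, and their order is not resolved by the counts.

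At the other end, the 3 peaks with the smallest -log10 p-value, 17.78, each had 30 tags over 3.72 tags and a fold of 8.06 (5.44 to 11.51), which is above the median fold of the group. They were nearest to RGD1306195 (2 peaks) and Nmnat3, an enzyme of NAD synthesis. In the longest peak, 1943 bp on chromosome 15 from 75415906 to 75417848, 88 tags gave a fold of 5.07 (4.07 to 6.25). Its nearest gene was the protocadherin gene Pcdh9, at 2320 kb. The next longest, 1595 bp on chromosome X from 88650580 to 88652174, lay 49.24 kb from H2afb3, a histone H2A variant gene, and had 58 tags and a fold of 8.25 (6.26 to 10.67). The remaining 3 of the 5 longest were nearest to Arid4b, Cyp2c22 and Usp9y and measured 1576, 1416 and 1362 bp.

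Of the 453 peaks, 33 had another peak of the same group within 10 kb, and the median distance to another one was 1748 kb over the 445 that share a chromosome or contig with one. Groups of 3 within 100 kb were found at 2 places. On chromosome 15, 3 peaks spanned 3.43 kb from 75415906 to 75419332, at about 2318 kb from the TSS of Pcdh9, with folds of 5.07, 7.85 and 5.29. On chromosome 4, 3 peaks spanned 86.1 kb from 55555797 to 55641851, of which 2 were nearest to Zfp800 (folds 9.01 and 8.33) and 1 to Arf5 (fold 6.54).

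To any peak of the whole list, the median gap was 35.2 kb (quartiles 4.67 and 131 kb), against 24.1 kb for the other annotated peaks and 49.3 kb for the whole list. Another peak was found within 1 kb of 15.2% of the RatSatRep2 peaks (95% Wilson interval 12.2 to 18.8%), within 10 kb of 40.0% (35.5 to 44.5%) and within 100 kb of 67.5% (63.1 to 71.7%). In the whole list 30.8% (30.0 to 31.7%) had a neighbour within 10 kb, and among the other annotated peaks 42.7% (40.2 to 45.3%). Of the 181 RatSatRep2 peaks with a neighbour within 10 kb, the nearest was one whose annotation was not used here in 140, another of the group in 30 and an L1_Rn peak in 9. When neighbours were sought among the annotated peaks alone the share fell to 10.4%.

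The distances between summits were not spread evenly. In bins of 500 bp, 50 neighbours lay at 0.5 to 1 kb from a RatSatRep2 peak and 5 to 9 in each bin from 2 to 4.5 kb. The number then rose to 16, 28, 38 and 19 in the bins between 4.5 and 6.5 kb and was 1 to 4 in those from 6.5 to 10 kb. A window of 4.5 to 6.5 kb was set after these numbers had been seen. In it, 96 of the 453 peaks had a neighbour (21.2%, 95% Wilson interval 17.7 to 25.2%), compared with 26 peaks (5.74%, 3.95 to 8.28%) in the window of the same width from 2.5 to 4.5 kb and 10 peaks (2.21%, 1.20 to 4.02%) from 6.5 to 8.5 kb. The share depends on which neighbours count, and was 12.8% with neighbours of at least 5-fold enrichment, 14.1% with those that kept a p-value of at most 1e-05 when pairs of tags were counted once, and 13.9% from 5 to 6 kb, all settings chosen after the data had been seen. The spacing is not particular to these peaks, as the share from 4.5 to 6.5 kb was 24.3% (17.0 to 33.4%) for RatSatRep2 in introns, 15.2% (11.9 to 19.1%) for L1_Rn outside introns and 13.0% (12.4 to 13.6%) for the whole list. Other LINE peaks outside introns had 5.06% (2.92 to 8.64%). All other annotated peaks had 22.0% (20.0 to 24.2%), as many as the RatSatRep2 peaks within the intervals, but also 19.8% from 2.5 to 4.5 kb and 14.0% from 6.5 to 8.5 kb, and satellite and simple repeat peaks had 24.8% (19.7 to 30.6%) between 28.6 and 16.8%. These lower and upper windows held 6.80 and 0.971% of RatSatRep2 in introns, 7.46 and 3.08% of L1_Rn outside introns and 9.18 and 4.97% of the whole list. Against its lower window, the whole list thus rose less than the RatSatRep2 peaks outside introns.

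**Figure D4:**
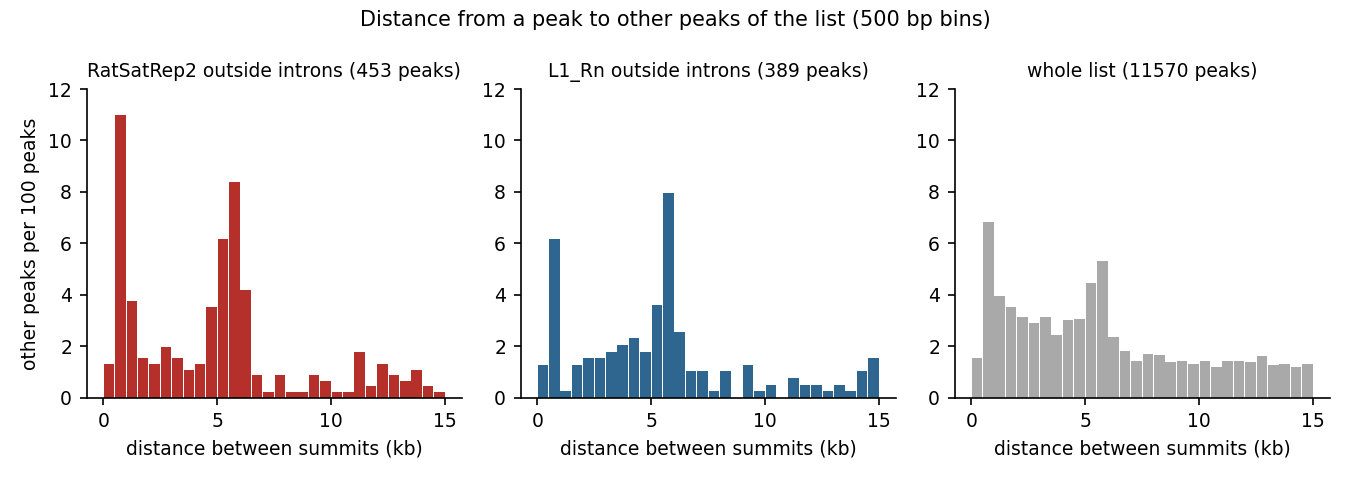
Number of other peaks per 100 peaks by distance between summits (kb, bins of 500 bp) for RatSatRep2 peaks outside introns (red), L1_Rn peaks outside introns (blue) and the whole list (grey). All 3 panels have a second maximum at 5.5 to 6 kb, of 8.39, 7.97 and 5.31 neighbours per 100 peaks.

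The 101 pairs formed in this window joined 96 RatSatRep2 peaks to 98 partner peaks, with a median distance of 5.58 kb (quartiles 5.18 and 5.93 kb). Of the partners 92 had no annotation used here, and the 6 annotated ones were L1_Rn (5) and L1_Rat1 (1), both LINE-1 subfamilies, so that the repeat at most partners is not known here. The partners had a median pileup of 22 tags, which is also the median of the whole list, and a median fold of 5.37, while the RatSatRep2 peaks paired with them had 50 tags and 7.04. This order is set largely by the choice of peaks, since the group holds only peaks whose -log10 p-value reaches 17.78 and nearly all partners lie outside the annotated part. The partner lay at the higher coordinate in 63 pairs and at the lower in 38, and the strand of the repeats was not used here. RatSatRep2 peaks without a partner had 46 tags and a fold of 7.80 in the median.

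RatSatRep2 peaks outside introns were found on each of the 22 assembled nuclear chromosomes. Chromosomes 2 and 4 carried 44 each, chromosome 1 carried 43 and chromosome X 32. Chromosome 1 held 9.49% of the group (95% Wilson interval 7.12 to 12.5%), less than the 16.5% (14.6 to 18.4%) of the other annotated peaks, by more than the intervals, and its share in the whole list was 12.1%. On chromosomes 10 and 12, which are rich in genes, there were 7 peaks (1.55%, 0.75 to 3.15%) and 4 peaks (0.883%, 0.344 to 2.25%), against 1.69% (1.15 to 2.49%) and 1.83% (1.26 to 2.65%) of the other annotated peaks. Chromosomes 11 and 18 had 21 peaks each, 4.64% (3.05 to 6.98%), against 2.37% (1.71 to 3.28%) and 2.51% (1.82 to 3.43%). On all 4 chromosomes the intervals overlap. Among chromosomes with 10 or more of the peaks, median fold ranged from 6.26 on chromosome 17 to 10.18 on chromosome 16, and their ranges overlapped. The median pileup and background were lower on chromosome 16 (36 and 3.93 tags) than on chromosome 17 (55 and 8.06 tags).

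**Figure D5:**
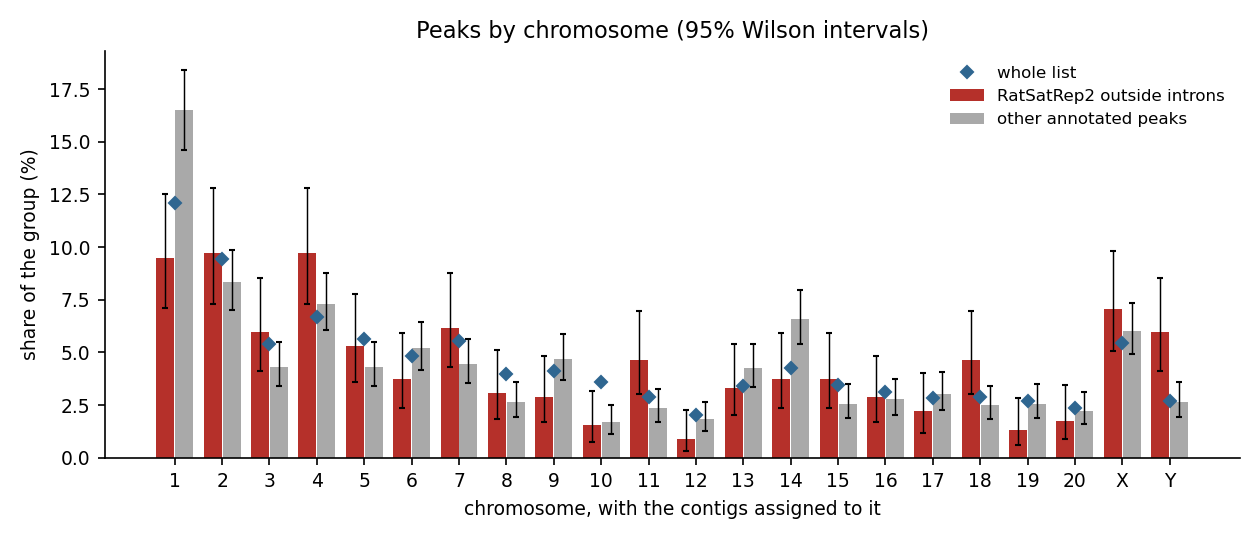
Share of RatSatRep2 peaks outside introns (red), other annotated peaks (grey, both with 95% Wilson intervals) and the whole list (blue diamonds) on each chromosome with its assigned contigs, in percent of the group. The largest gaps are on chromosome 1 (9.49% against 16.5%) and on Y (5.96% against 2.64%), and the other annotated peaks include intronic ones.

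Chromosome Y and the contigs assigned to it carried 27 of the peaks (5.96%, 95% Wilson interval 4.13 to 8.53%), against 2.64% (1.94 to 3.59%) of the other annotated peaks and 2.69% (2.41 to 3.0%) of the whole list. Only 5 of the 27 were on the assembled chromosome, and on assembled chromosomes alone the shares were 1.16% (0.498 to 2.69%), 0.281% (0.109 to 0.72%) and 0.276% (0.195 to 0.392%). The other 22 lay on 10 contigs, and 21 of these had no category and no nearest gene in the annotation. They were kept by the rule because no intron was named, and whether they lie in introns was not determined. The rule removed intronic peaks from the group alone, and 0 of the 66 annotated peaks on Y or its contigs were named intronic. With intronic RatSatRep2 peaks included the share on Y was 4.86% (3.36 to 6.97%), and this interval overlaps that of the other annotated peaks. The Y peaks had a median of 46 tags and a median fold of 8.22 (range 4.56 to 26.55). On the assembled Y, 3 peaks were nearest to Usp9y, 1 to Sry, the sex-determining gene, with a fold of 7.95 (34.0 kb), and 1 to Eif2s3y, a translation initiation factor gene, with a fold of 9.59 (201.5 kb).

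By annotation, 432 of the 453 peaks (95.4%, 95% Wilson interval 93.0 to 96.9%) were intergenic, and the other 21 had no category. Intronic peaks had been removed by the rule, so that this share is partly set by the selection. The median distance from the peak centre to the nearest TSS, as the annotation gives it, was 148 kb (quartiles 50.18 and 403.2 kb) over these 432, compared with 107.5 kb over 1427 other annotated peaks and 162.7 kb for L1_Rn outside introns. Within 10 kb of a TSS lay 22 peaks (5.09%, 3.39 to 7.59%), against 9.95% (8.50 to 11.6%) of the other annotated peaks, which include introns and promoters. In groups closer in kind the intervals overlap, namely L1_Rn outside introns (7.57%, 5.29 to 10.7%), other LINE peaks outside introns (6.06%, 3.64 to 9.91%), satellites and simple repeats (4.0%, 2.12 to 7.43%) and RatSatRep2 in introns (4.85%, 2.09 to 10.9%). The closest was at Nt5c3a, a nucleotidase gene, 2.212 kb upstream, on chromosome 4 from 87283100 to 87283594, with 72 tags and a fold of 4.97 (3.89 to 6.26). Next were Olr354 (2.405 kb), Rnf103, a RING finger gene (4.16 kb), Defb3, a beta-defensin gene (4.193 kb), and Avp, the vasopressin gene (4.46 kb), with folds of 5.88, 8.65, 6.45 and 6.05. The nearest gene is a matter of position and not a shown target.

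The 432 peaks had 391 different nearest genes, of which 354 were nearest to 1 peak, 34 to 2 and 3 to 3 or more. The last were Pcdh9 with 4 peaks (folds 5.07 to 7.85), Tm4sf1, a tetraspanin-like membrane protein gene, with 3 (folds 9.67 to 14.51) and Usp9y with 3 (folds 8.88 to 26.55). Sensory receptor genes were nearest to 37 peaks (8.56%, 95% Wilson interval 6.28 to 11.6%), against 5.82% (4.72 to 7.15%) of the other annotated peaks, with overlapping intervals. The olfactory receptors among them made up 29 peaks near 28 genes (6.71%, 4.71 to 9.47%, against 3.08%, 2.30 to 4.11%), at a median of 15.2 kb and a median fold of 7.60. For olfactory receptors these intervals do not overlap, but the other annotated peaks include introns and promoters and the difference was not tested. The vomeronasal receptors, which detect pheromones, had 8 peaks (1.85%, 0.941 to 3.61%, against 2.73%, 2.01 to 3.71%). Trace amine and taste receptors had 0 in both.

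Protocadherins and cadherins, which mediate cell adhesion, were nearest to 16 peaks (3.70%, 2.29 to 5.93%, against 1.89%, 1.30 to 2.74%), at a median of 918 kb. Their intervals overlap. The folds ranged from 3.70 to 13.26, with Cdh2 (fold 7.90) and the protocadherin cluster genes Pcdha1 (6.24) and Pcdhb2 (13.26) among them. Y genes had 5 peaks (1.16%, 0.495 to 2.68%, against 0.35%, 0.15 to 0.818%), as described above, with overlapping intervals. Of the genes on a fixed spermiogenesis list, which leaves out Stpg2, 4 were nearest to a peak (0.926%, 0.361 to 2.36%, against 0.491%, 0.238 to 1.01%). These were Adam7 (fold 11.11), Tex29 (9.67), Spaca5 (7.09), a sperm acrosome gene, and Tex43 (6.13), at 49.34 to 158 kb. The list takes Adam, Tex and Spaca genes by their symbols alone, and a role of each in spermiogenesis was not checked. The transition protein, protamine and H1 genes of this list were nearest to none of the 432 peaks. They are few, and no separate count of them was made for the other annotated peaks, so that this absence is not a result about these genes. C-type lectins had 2 peaks, both near Clec4b2 (folds 10.92 and 5.75), a share of 0.463% (0.127 to 1.67%) against 0.491% (0.238 to 1.01%).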

How the data were processed

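Nuclei of rat testes were used for ChIP with anti-H1T2 antibodies and for input. Per the labels and methods, the authors aligned paired reads uniquely to rn6 with Bowtie2 and merged the replicates. Per the file headers, MACS 2.0.9 called broad regions at a p-value of 5e-05 with tags extended to 200 bp, whereas the methods name MACS 1.4.2. The legend of the supplied annotation describes the list instead as peaks shared by the replicates at a p-value of 1e-05. The list holds -log10 p-values down to 4.32, which that limit would not admit, and the header was followed. Of 34071564 IP tags 47.6% were kept (at most 2 per position), and of 83508652 input tags 93.8% (at most 3 per position). The deposited signal is the pileup in tags, the deposited ratio is the fold enrichment, and the deposited -log10 p-value is that of the authors' peak caller. Their q-values were not used. The deposited peak length, in bp, was used as given. Local background was computed as pileup over fold, and a value within 0.005 tags of 1.65 was taken as genome background. From pileup and background, 100.0% of the members' -log10 p-values were recovered within 0.1.

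Annotation (HOMER 4.7) was matched by chromosome, start and end. The study describes it for the whole list, but the copy used here ends after 1930 peaks, and 1 unannotated peak shares the lowest value. Contigs were counted with their chromosome. Shares have 95% Wilson intervals and folds exact Poisson intervals with background fixed, both for counting error only. Peaks are not replicates, and no test was run. All pileups are even (0 odd), so pairs were also counted once, with pileup and background halved. Peaks named are the 10 of largest -log10 p, the 5 each of largest fold, pileup and length and nearest a TSS, the 3 of smallest -log10 p, those whose gene is nearest to 3 or more, the densest 100 kb runs and genes of fixed lists; single genes of these lists were picked for naming after values were seen. Of the peaks this rule covers, 1 is not reported here. Members and lists were chosen with earlier results of these data known. Distance functions were tested on simulated data. An rn6 genome was not used here, so no sequence is printed. Columns of single samples numbered 0. Python 3.11.15, numpy 2.4.6, pandas 2.3.3, scipy 1.17.1 and matplotlib 3.10.9 were used.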

Additional observations from a re-analysis of the deposited data

How the results depend on the processing

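No paired analysis was possible because the peaks were called on merged samples, and for the same reason neither replicate could be left out. For 10 values, 79 alternatives were computed. In 62 the value stayed within its 95% interval (Wilson for shares, order statistics for medians) or, for the number of peaks, within 1.5 times, and in 17 it did not. Among the 62 are values that could not move, namely the number of peaks and the median fold with pairs of tags counted once and the TSS distance of intergenic peaks, which are the same 432. A -log10 p-value of at least 25 left 207 peaks, with a median fold of 7.95, a pileup of 58 tags, a background of 7.45 tags and a length of 479 bp. A value of at least 20 gave a pileup of 50 tags and a background of 6.97 tags. These shifts follow from keeping peaks of smaller p-values. The share of the group among annotated peaks was 26.8% at a fold of at least 5 and 28.8% with introns included. The share on Y was 1.16% on assembled chromosomes and 1.39% for intergenic peaks, since most Y peaks lie on contigs without a category. A neighbour was found for 27.6% within 5 kb, 45.3% within 20 kb and 10.4% among annotated peaks. The share with a neighbour at 4.5 to 6.5 kb, with all its alternatives chosen after seeing the data, was 13.9% from 5 to 6 kb, 12.8% with neighbours of at least 5-fold enrichment and 14.1% with neighbours that kept a p-value of at most 1e-05 when pairs of tags were counted once. The annotation of 9640 peaks below its range was not used here, and tag numbers are known for the merged samples alone.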
